A study of Mus musculus with 12 samples.

Results

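The genes described here are 9 transcription factors of the osteoblast lineage: Sp7, Dlx5, Dlx6, Dlx3, Vdr, Mef2c, Tcf7, Zfp521 and Hey1. They were chosen by name for their known roles in bone-forming cells, with earlier results of these data known, and make up 9 of the 23715 genes measured. Each factor's level is the summed FPKM (sequenced fragments per kilobase of its length, corrected for library depth) of its RefSeq transcripts in a mouse. All 9 passed the filter on low values, a level of at least 1 FPKM in 3 or more of the 12 mice, which 13059 genes passed.

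RNA was sequenced from the calvaria of 12 newborn C57BL/6 mice (parietal bone, taken at postnatal day 2 by the methods). The Med23 MSC-/- set compared 3 mice with deletion of Med23, a subunit of the Mediator complex (P-KO), with 3 control littermates (P-Ctrl). The Runx2+/- set compared 3 mice with 1 functional copy of Runx2 (R-Het) with 3 wild-type mice (R-WT). The study asked whether loss of Med23 and loss of 1 Runx2 copy change the same genes in forming bone.

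P-KO mice carried floxed Med23 alleles and the Prx1-Cre transgene, which is active in limb and craniofacial mesenchyme. Blood, vessel and other cells from outside this mesenchyme should therefore have kept Med23, which was not measured by cell type. The labels call the P-Ctrl mice WT, and the study elsewhere gives its controls for this cross as Med23 fl/fl. The Runx2 allele was lost in every cell of the R-Het mice. Every sample was a whole piece of bone, in which fewer cells of a type and less RNA per cell cannot be told apart.

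RUNX2 starts the osteoblast programme, and SP7 (osterix) acts after it to commit the cell to bone formation. The homeodomain proteins DLX3, DLX5 and DLX6 bind genes of the same programme, and the vitamin D receptor VDR, the MADS box protein MEF2C and the WNT effector TCF7 bring signals from hormones and neighbouring cells to it. ZFP521 and HEY1 can bind RUNX2 and lower its activity, and Hey1 is itself a classical target of NOTCH signalling.

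The library estimates ran from 7800000 to 11800000 fragments per mouse. At that depth a factor's level rested on roughly 120 fragments for Hey1 in the mouse where it was lowest and up to 2900 for Sp7. Med23 was at 4.54 to 5.99 FPKM in P-Ctrl and 4.89 to 5.74 in P-KO, and because only some exons are floxed a value over the whole transcript does not check the deletion. Runx2 was at 27.3 to 37.7 FPKM in R-WT and 30.4 to 35.7 in R-Het, so the lost copy was not visible as a lower level. The study's methods do not describe the disrupted Runx2 allele, so this level does not check the genotype. The 3 control mice P-Ctrl 2, P-Ctrl 3 and R-WT 1 had Xist above 1 FPKM, and none of the 6 mutant mice did. Xist is a marker of female cells, so by this measure sex and genotype were partly mixed in both sets. Skeletal muscle genes, 11 in all, summed to between 22.8 and 1378 FPKM in P-Ctrl, 597.5 to 4165 in P-KO, 1904 to 5616 in R-WT and 27.1 to 189.6 in R-Het. Muscle RNA was thus separated by genotype in the Runx2+/- set, with every R-WT mouse above every R-Het mouse.

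The upstream sequence is shown for Vdr, which fell in P-KO, and for Mef2c, which did not pass the test in either set. The RefSeq promoter table (GRCm38.p6) held 3 of the 9 factors, Vdr, Mef2c and Tcf7. Sp7, Dlx3, Dlx5, Dlx6, Zfp521 and Hey1 had no entry. The 250 bases before the start site that matches the measured Vdr transcript lie on the minus strand at chr15:97908297-97908546, upstream of the gene at chr15:97854427-97908296. Those of the minor Mef2c transcript lie on the plus strand at chr13:83503784-83504033, at the start of the gene at chr13:83504017-83667079. Capitals mark the GC box GGGCGG, the core site of SP-family proteins, on either strand.
Vdr: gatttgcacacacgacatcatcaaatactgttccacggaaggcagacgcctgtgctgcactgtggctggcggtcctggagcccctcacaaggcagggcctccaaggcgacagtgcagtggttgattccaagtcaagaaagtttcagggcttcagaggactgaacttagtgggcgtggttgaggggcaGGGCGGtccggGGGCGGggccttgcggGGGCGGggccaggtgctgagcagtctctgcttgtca
Mef2c: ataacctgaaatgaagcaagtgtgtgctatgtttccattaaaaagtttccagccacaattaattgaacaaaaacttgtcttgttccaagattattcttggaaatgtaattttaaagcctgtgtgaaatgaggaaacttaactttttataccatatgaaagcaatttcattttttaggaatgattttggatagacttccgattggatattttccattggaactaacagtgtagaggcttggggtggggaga
The Vdr sequence held 3 GC boxes, the first bases of which lie 63, 52 and 36 bases before the start site, and 61.2% of its bases were G or C. The Mef2c sequence held 0 GC boxes, with 33.6% G or C. Another 2 Mef2c promoters in the table, not matched to a measured transcript, held 1 and 0, and the 2 promoters of Tcf7, which was not called either, held 1 and 2. Of 32851 promoters of the same length, 32.7% held at least 1 GC box. The RUNX core letters TGTGGT or TGCGGT were found in neither sequence on either strand, against 18.6% of all promoters. These matches describe letters only.

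In the control mice the 9 factors covered a wide range, and Sp7 was the most abundant of them. Sp7 averaged 65.1 ± 12.2 FPKM (SD, n = 6 control mice) and lay above Dlx5 in 12 of 12 mice. Dlx5 (34.5 ± 5.24), Mef2c (31.1 ± 3.84) and Vdr (31.0 ± 7.17) followed, close together. Dlx5 lay above Mef2c in 5 of the 6 control mice and 6 of all 12, and Mef2c above Vdr in 3 and 9. Dlx6 (25.5 ± 4.29) lay below Vdr in 4 of the 6 control mice and 8 of all 12, and above Tcf7 (16.7 ± 3.76) in all 12. Hey1 (12.8 ± 0.952), Zfp521 (10.4 ± 0.897) and Dlx3 (10.1 ± 0.734) were the lowest. Among the control mice, Hey1 lay above Zfp521 in 5 of 6 and Zfp521 above Dlx3 in 4 of 6. In every mutant mouse Zfp521 lay above Hey1. FPKM values are per length, so that these levels can be set side by side between genes. The 2 control groups overlapped for 6 factors. For Tcf7, Vdr and Mef2c, every R-WT mouse lay below every P-Ctrl mouse, and since each control group came from its own cross the cross cannot be told apart from other differences between the groups.

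**Figure D1:**
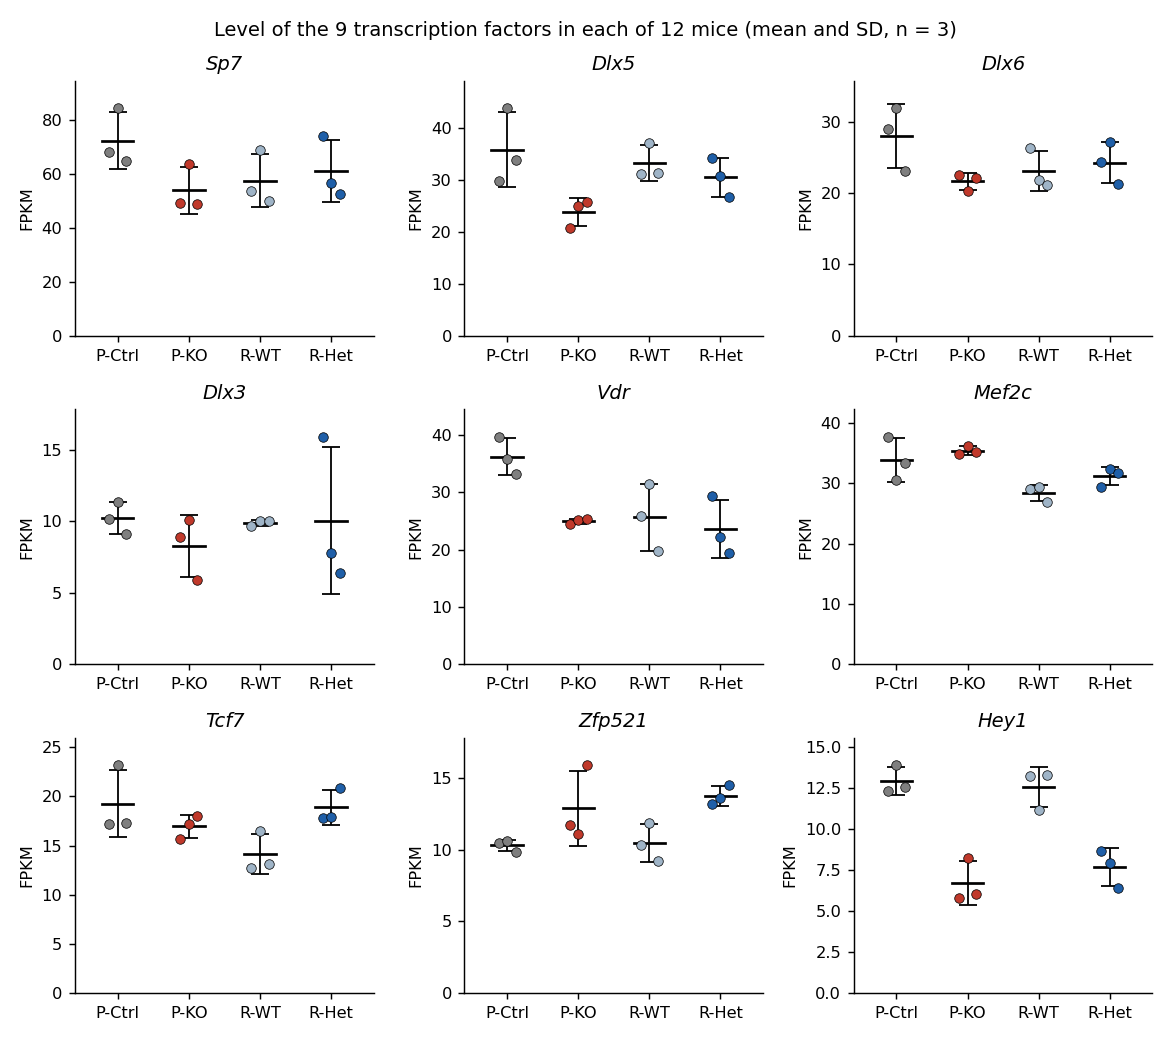
The level of each factor in FPKM (y axis, linear from 0) in each mouse (points) of the 4 groups (x axis), with the group mean and SD as bars (n = 3). Hey1 is the factor in which both mutant groups lay below all 6 control mice, Vdr lay lower in P-KO than in P-Ctrl, and Mef2c stayed between 26.9 and 37.7 FPKM in all 12.

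In the Med23 MSC-/- set, Hey1 and Vdr fell, and the other 7 factors did not pass the test. The 2 called factors of 9 stood against 0.559% of all tested genes that were lower at an adjusted p under 0.05 (limma, Benjamini-Hochberg). None of the 9 was higher, against 1.01% of all genes, and at an unadjusted p under 0.05 the counts were 5 lower, against 5.63% of all genes, and 0 higher, against 15.7% (limma). By the simpler measure that the groups do not overlap, 5 of the 9 were lower in every P-KO mouse than in any P-Ctrl mouse (Sp7, Dlx5, Dlx6, Hey1 and Vdr), against 7.68% of all genes, and 1 was higher (Zfp521), against 19.6%. The median log2 fold change of the factors was -0.35, and that of all tested genes 0.06.

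In the Runx2+/- set, Hey1 fell and no other factor passed the test. The 1 called factor stood against 1.49% of all genes that were lower at an adjusted p under 0.05, and the 0 that were higher against 0.398% (limma). At an unadjusted p under 0.05 the counts were 1 lower, against 8.32% of all genes, and 2 higher (Zfp521 and Tcf7), against 7.09%. The same shares of all genes stand behind each unadjusted count given for a gene list. Hey1 was also the only factor whose R-Het mice all lay below the R-WT mice, against 10.4% of all genes. The 3 factors Zfp521, Tcf7 and Mef2c were higher in every R-Het mouse, against 10.7%. The median log2 fold change was 0.07 over the factors and 0.02 over all genes.

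**Figure D2:**
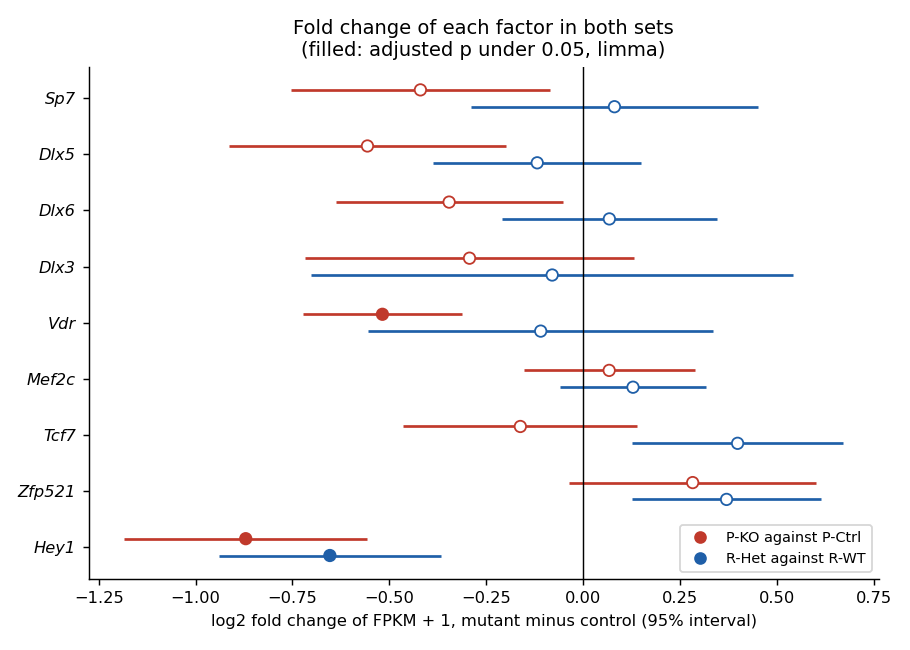
The log2 fold change of FPKM + 1 (x axis, mutant minus control) of each factor (y axis) in the Med23 MSC-/- set (red) and the Runx2+/- set (blue), with 95% intervals as lines and filled points for an adjusted p under 0.05. Hey1 is filled in both sets at -0.87 and -0.65, and Vdr in the first set alone at -0.52.

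Sp7 encodes the zinc finger protein without which no osteoblasts form (chr15:102356603-102367035, GRCm38). Its level was 68.1, 84.4 and 64.8 FPKM in P-Ctrl and 49.2, 63.9 and 48.9 in P-KO. Every P-KO mouse lay below every P-Ctrl mouse, though the highest P-KO and the lowest P-Ctrl mouse were less than 1 FPKM apart. The log2 fold change of -0.42 ± 0.14 (SE) did not pass the test (adjusted p = 0.163, 95% interval -0.75 to -0.09). In the other set, Sp7 was at 54.0, 68.9 and 50.1 FPKM in R-WT and 74.3, 56.6 and 52.6 in R-Het. The groups overlapped (log2 fold change 0.08 ± 0.16, adjusted p = 0.865, interval -0.29 to 0.45). The genes whose levels followed Sp7 most closely over the 12 mice, each centred on the mean of its cross, were Sh3pxd2b (Pearson's r = 0.95), Col1a1 (0.95), Rasa3 (0.94), Rexo1 (0.93) and Pde4a (0.92). Col1a1 makes the main collagen chain of bone. These correlations are a description over mice that share genotype and library depth. The SP relatives tested, Sp1, Sp3 and Sp4, included 0 genes that passed the test in either set. Sp3, the most abundant of them, was at 36.4 FPKM in P-Ctrl and 42.4 in P-KO.

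Dlx5 and Dlx6 are neighbours on chromosome 6 (chr6:6877801-6882068 and chr6:6863334-6867970), with 9830 bases between them, and both pattern the skull and promote osteoblast maturation. Dlx5 was at 29.8, 43.8 and 33.8 FPKM in P-Ctrl and 20.7, 25.0 and 25.8 in P-KO. The groups did not overlap, and the P-KO mean lay 33.5% below the control mean, which did not pass the test (log2 fold change -0.56 ± 0.15, adjusted p = 0.110, interval -0.91 to -0.20). Fitted with all 12 mice together, Dlx5 passed at an adjusted p of 0.0468, whereas Vdr no longer did (0.0879). Its Runx2+/- set levels of 31.1, 37.2 and 31.3 FPKM in R-WT and 34.2, 30.7 and 26.7 in R-Het overlapped (log2 fold change -0.12 ± 0.12, adjusted p = 0.682). Dlx5 had 2 measured transcripts, and the minor one varied from 0.641 to 7.90 FPKM among the P-Ctrl mice. The major transcript held 86.1% of the gene's mean level in P-Ctrl and 91.4% in P-KO.

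Dlx6 was at 29.0, 31.8 and 23.0 FPKM in P-Ctrl and 22.5, 20.2 and 22.1 in P-KO. The P-KO mice lay close together, just under the lowest control mouse (log2 fold change -0.35 ± 0.13, adjusted p = 0.182). Dlx6 in the Runx2+/- set was at 26.3, 21.9 and 21.1 FPKM in R-WT and 24.4, 27.1 and 21.3 in R-Het, which overlapped (log2 fold change 0.07 ± 0.12, adjusted p = 0.847). The antisense gene Dlx6os1 overlaps Dlx6 and was at 1.98 to 3.12 FPKM. No source used here states a strand-aware count, so reads of Dlx6 and Dlx6os1 may be mixed.

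Dlx3, which acts in bone, tooth and hair (chr11:95120117-95125296), had the widest spread, relative to its mean, among mice of 1 genotype. Its level was 10.2, 11.3 and 9.11 FPKM in P-Ctrl and 8.89, 10.1 and 5.90 in P-KO (log2 fold change -0.29 ± 0.18, adjusted p = 0.394). In R-WT it was nearly constant, at 9.66, 9.99 and 10.05 FPKM, whereas the R-Het mice were at 15.9, 7.76 and 6.41. One R-Het mouse was thus above and the other two below all R-WT mice (log2 fold change -0.08 ± 0.27, adjusted p = 0.922, interval -0.70 to 0.54). Epidermis also uses Dlx3, so epidermal genes were read beside it. Krt5 and Krt14 averaged at most 0.0707 FPKM in a group, and the 6 epidermal genes summed to 3.21 to 5.53 FPKM over the 12 mice.

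Of the DLX and MSX relatives, Dlx1, Dlx2 and Dlx4 were under the filter, and Dlx4 averaged 0.839 FPKM in P-Ctrl and 0.308 in P-KO. Msx1 and Msx2 were tested. Msx2, a homeobox gene that keeps cranial suture cells growing, was at 9.60, 10.1 and 9.99 FPKM in R-WT and 17.3, 14.4 and 13.4 in R-Het. It rose with no overlap (log2 fold change 0.55 ± 0.10, adjusted p = 0.0474), but passed in 0 of 6 fits without 1 mouse (adjusted p 0.0568 to 0.184). In the Med23 MSC-/- set its log2 fold change was 0.21, with an adjusted p of 0.502. The neuronal genes Gad1 and Gad2, which mark forebrain cells that also use DLX proteins, averaged at most 0.0376 FPKM in a group.

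Vdr encodes the nuclear receptor through which active vitamin D changes transcription, and osteoblasts and osteocytes are among the cells that carry it. Its level was 39.7, 35.8 and 33.2 FPKM in P-Ctrl and 24.5, 25.1 and 25.3 in P-KO. The 3 P-KO mice lay within 1 FPKM of each other, well under the lowest control mouse. The P-KO mean fell by 31.2%, a log2 fold change of -0.52 ± 0.09 that passed the test (adjusted p = 0.0430, interval -0.72 to -0.31). Without any 1 of the 6 mice the log2 fold change was -0.58 to -0.45 and the adjusted p 0.0886 to 0.168, so the call was lost each time. Most calls were lost in these fits, with 0 to 35 genes called against 73 lower and 132 higher with all 6 mice. In the fit of all 12 mice its adjusted p was 0.0879.

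Vdr in the Runx2+/- set was at 25.8, 31.4 and 19.8 FPKM in R-WT and 29.3, 22.2 and 19.4 in R-Het. These groups overlapped almost entirely (log2 fold change -0.11 ± 0.19, adjusted p = 0.845, interval -0.55 to 0.34). The R-WT mean of 25.7 ± 5.83 FPKM (SD, n = 3) was close to the P-KO mean of 25.0 ± 0.437, and the P-Ctrl mean of 36.3 ± 3.24 stood above the other 3 groups. The difference of Vdr between the sets, -0.41 ± 0.23, did not pass (adjusted p = 0.438, interval -0.92 to 0.10).

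The partners of VDR did not pass the test in either set. Rxra and Rxrb encode the retinoid X receptors that bind DNA together with VDR, and they were at 17.1 and 23.4 FPKM in P-Ctrl and 17.7 and 21.9 in P-KO. The third, Rxrg, was at 0.784 FPKM in P-Ctrl and 2.31 in P-KO, with overlapping groups (log2 fold change 0.87, unadjusted p = 0.0185 and adjusted p = 0.156, limma). Of 8 vitamin D response genes, 3 reached the filter, and 0 of those 3 passed in either set (limma). At an unadjusted p under 0.05, 1 was lower in P-KO (Tnfsf11, the osteoclast-inducing ligand RANKL) and 2 in R-Het (Tnfsf11 and Enpp1). Tnfsf11, Rxrg and Kdr were named after their values were seen. Cyp24a1, the enzyme that breaks down active vitamin D and a strong target of VDR, was listed at 0 in every P-Ctrl, R-WT and R-Het mouse. Enpp1, which makes the mineralization inhibitor pyrophosphate, was at 89.2 FPKM in P-Ctrl and 88.5 in P-KO, and Lrp5, a WNT co-receptor, at 22.4 and 21.1.

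Mef2c was the steadiest of the 9 factors. It encodes a MADS box protein used by muscle, chondrocytes and osteocytes, and in osteocytes it helps switch on Sost. Its level was 37.7, 30.5 and 33.4 FPKM in P-Ctrl and 34.8, 36.2 and 35.2 in P-KO, which overlapped (log2 fold change 0.07 ± 0.09, adjusted p = 0.723, interval -0.15 to 0.29). Mef2c in the Runx2+/- set was at 29.0, 29.4 and 26.9 FPKM in R-WT and 29.4, 32.4 and 31.7 in R-Het. The R-Het mice lay just above the R-WT mice (log2 fold change 0.13 ± 0.08, adjusted p = 0.512, interval -0.06 to 0.32). The sign in the Med23 MSC-/- set turned under both rescalings of the libraries, to -0.034 and -0.0044. Muscle also uses Mef2c, and summed muscle genes were at most 189.6 FPKM in R-Het and at least 1904 in R-WT, while in the other set muscle RNA and Mef2c were both higher on average in P-KO. With a muscle score (the mean log2 level of the 11 muscle genes) in the fit the log2 fold change in R-Het was -0.059.

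The 2 measured Mef2c transcripts kept similar shares, with the major one at 71.7% of the gene in P-KO and 75.4% in R-Het. The genes closest to Mef2c over the 12 mice were Csgalnact2 (r = 0.95), which starts chondroitin sulfate chains, Jam3 (0.93), Mmut (0.92), Camsap2 (0.88) and Nepro (0.88). The MEF2 relatives Mef2a and Mef2d did not pass the test, and Mef2a was at 22.2 FPKM in P-Ctrl and 22.1 in P-KO. Of 4 osteocyte genes tested, 0 passed in either set (limma; 2 were lower in P-KO and 0 in R-Het at an unadjusted p under 0.05), and their median log2 fold change was -0.89 in the Med23 MSC-/- set. The 2 lower in P-KO were Dmp1 and Sost. Dmp1, a matrix protein of osteocytes, was at 231 FPKM in P-Ctrl and 117 in P-KO (adjusted p = 0.124), and Mepe at 90.0 and 55.4 (adjusted p = 0.351). Sost averaged 16.2 FPKM in P-Ctrl and 7.07 in P-KO, without overlap, and did not pass (log2 fold change -1.14 ± 0.25, adjusted p = 0.0715, limma). Its groups overlapped in the Runx2+/- set (log2 fold change 0.33, adjusted p = 0.549).

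Tcf7 had the largest difference between the 2 sets, one that did not pass the test. It encodes TCF1, which carries beta-catenin to WNT target genes (chr11:52246527-52283383). Its level was 17.2, 23.2 and 17.3 FPKM in P-Ctrl and 15.7, 17.2 and 18.0 in P-KO, which overlapped (log2 fold change -0.16 ± 0.13, adjusted p = 0.504, interval -0.46 to 0.14). Tcf7 in the Runx2+/- set was at 12.7, 16.5 and 13.2 FPKM in R-WT and 17.8, 17.9 and 20.9 in R-Het. Every R-Het mouse lay above every R-WT mouse (log2 fold change 0.40 ± 0.12, interval 0.13 to 0.67), and the adjusted p of 0.155 missed the threshold. The difference between the sets was -0.56 ± 0.18 (interval -0.96 to -0.16, adjusted p = 0.173). The R-Het mean of 18.9 ± 1.73 FPKM (SD, n = 3) was also close to the P-Ctrl mean of 19.2 ± 3.41.

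TCF1 is abundant in T cells, so T cell genes were read beside it. No T cell gene reached the filter, the highest single value of the 6 in the files was 0.591 FPKM, and their sum was 1.07 to 1.38 FPKM in R-WT and 0.576 to 0.869 in R-Het. These values are near 0, and the part of T cells in the level of Tcf7 was not tested. Of the other TCF and LEF genes together with Ctnnb1, 4 in all, 0 passed in either set. Ctnnb1, which encodes beta-catenin itself, was at 439 FPKM in P-Ctrl and 499.7 in P-KO, and Tcf7l1 at 12.3 and 11.8. Of 8 WNT response genes tested, 0 passed in either set (limma; at an unadjusted p under 0.05, 3 were lower in P-KO, and 1 was lower and 1 higher in R-Het). Tnfrsf19 was at 97.6 FPKM in P-Ctrl and 53.9 in P-KO (adjusted p = 0.0811), and the cell cycle gene Ccnd1 at 36.1 and 42.4. The genes nearest to Tcf7 over the mice were Scarf2 (r = 0.97), Slc6a6 (0.96), Dzip1l (0.93), Rhobtb2 (0.93) and Lmf2 (0.93).

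Zfp521, a large zinc finger protein that holds back osteoblast maturation, was higher on average in both mutant groups. It was at 10.5, 10.6 and 9.83 FPKM in P-Ctrl and 11.7, 11.1 and 15.9 in P-KO. The groups did not overlap, and 1 P-KO mouse stood above the other two (log2 fold change 0.28 ± 0.14, adjusted p = 0.280, interval -0.04 to 0.60). Zfp521 in the Runx2+/- set was at 10.3, 11.9 and 9.19 FPKM in R-WT and 13.2, 13.6 and 14.6 in R-Het. R-WT and R-Het did not overlap either, with a log2 fold change of 0.37 ± 0.11 (interval 0.13 to 0.61) and an adjusted p of 0.140. Neither value passed the test. Genes that work with ZFP521, 5 in the list, included 0 that passed in either set. Its partner Hdac3, a histone deacetylase, was at 46.2 FPKM in P-Ctrl and 50.9 in P-KO, and Ebf1, which ZFP521 inhibits, at 7.66 and 7.86.

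Hey1 had the largest fold change of the 9 factors in both sets. It encodes a basic helix-loop-helix repressor that NOTCH switches on (chr3:8663359-8667038), and osteoblasts as well as arterial endothelial cells use it. Its level was 12.3, 13.9 and 12.6 FPKM in P-Ctrl and 5.81, 8.24 and 6.01 in P-KO. The P-KO mice lay far below the control mice, and their mean fell by 48.3% (log2 fold change -0.87 ± 0.13, adjusted p = 0.0359, interval -1.18 to -0.56).

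Hey1 in the Runx2+/- set was at 13.3, 11.2 and 13.3 FPKM in R-WT and 8.67, 7.91 and 6.39 in R-Het. The groups were again apart, and the R-Het mean fell by 39.1% (log2 fold change -0.65 ± 0.12, adjusted p = 0.0467, interval -0.94 to -0.37). All 6 mutant mice, at 5.81 to 8.67 FPKM, thus lay below all 6 control mice, at 11.2 to 13.9 FPKM. The 2 sets share no mice. The difference of Hey1 between them was -0.22 ± 0.19 (adjusted p = 0.645, interval -0.63 to 0.20). Without any 1 mouse the log2 fold change stayed between -1.01 and -0.79 in the Med23 MSC-/- set and between -0.74 and -0.54 in the Runx2+/- set. The adjusted p rose to between 0.0513 and 0.133 and between 0.0662 and 0.184, so neither call held without all 6 mice of its set. Over all genes, these fits called 0 to 35 in the Med23 MSC-/- set and 34 to 169 in the Runx2+/- set.

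Heyl, the close relative of Hey1 and another NOTCH target, was at 4.95, 5.21 and 5.07 FPKM in P-Ctrl and 2.30, 2.37 and 2.79 in P-KO. It fell by 0.81 ± 0.10 on the log2 scale (adjusted p = 0.0269), a call lost in all 6 fits without 1 mouse (0.0610 to 0.103). Heyl in the Runx2+/- set was at 4.74, 4.72 and 5.93 FPKM in R-WT and 3.07, 4.30 and 3.07 in R-Het, which did not overlap but did not pass (log2 fold change -0.46 ± 0.14, adjusted p = 0.171). Of the HEY and HES relatives, Heyl, Hes1, Hes6 and Hey2 were tested and Heyl alone was called, in the Med23 MSC-/- set. Hes1, the most abundant of them, was at 37.7 FPKM in P-Ctrl and 31.8 in P-KO (adjusted p = 0.225) and at 39.0 in R-WT and 40.7 in R-Het.

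Of 9 NOTCH pathway genes tested, 0 passed in either set (limma), and 3 were lower at an unadjusted p under 0.05 in the Med23 MSC-/- set against 0 in the Runx2+/- set (5.63% and 8.32% of all genes). Rbpj, the DNA-binding partner of the cleaved receptor, was at 16.2 FPKM in P-Ctrl and 16.9 in P-KO, and Notch2 at 8.98 and 8.18. Dll4 and Nrarp were picked after their values were seen. Dll4, a NOTCH ligand made by endothelial cells, was at 2.15, 3.46 and 2.28 FPKM in P-Ctrl and 0.915, 0.682 and 1.55 in P-KO (log2 fold change -0.83 ± 0.21, adjusted p = 0.0936). Nrarp, a target of NOTCH, was at 3.16, 4.88 and 4.16 FPKM in P-Ctrl and 2.68, 2.33 and 2.76 in P-KO (-0.49 ± 0.15, adjusted p = 0.131). Both were also lower on average in R-Het than in R-WT, with adjusted p of 0.346 and 0.427.

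**Figure D3:**
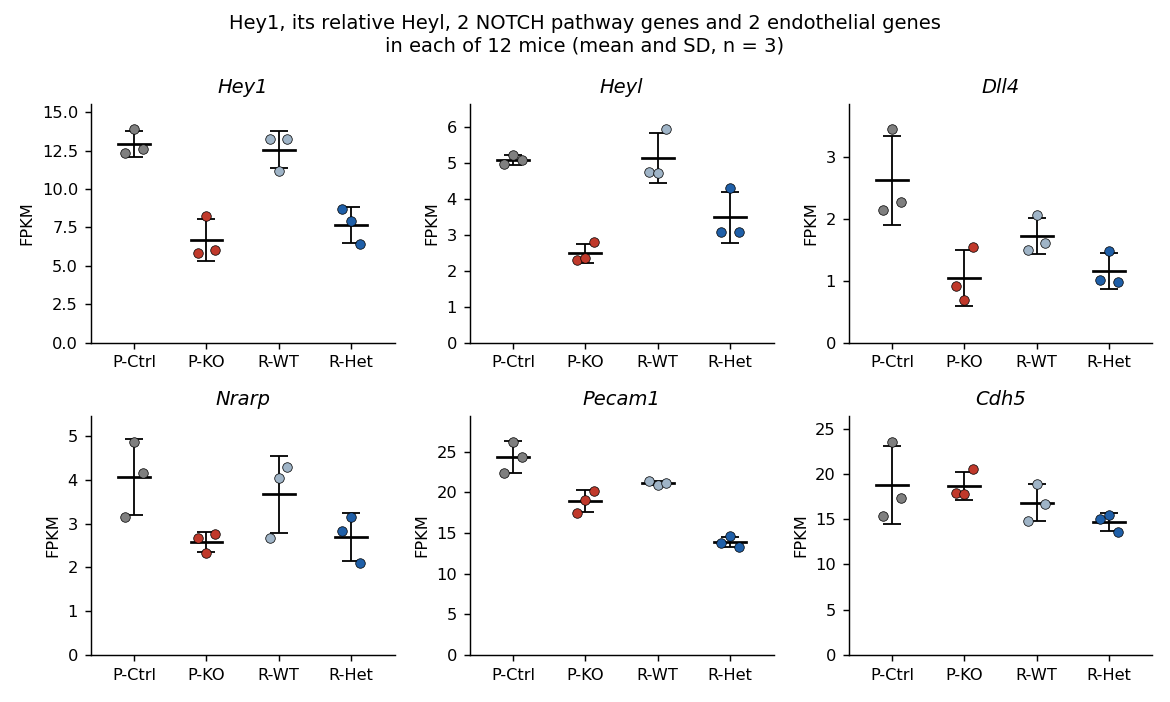
FPKM (y axis, linear from 0) of Hey1, Heyl, the NOTCH pathway genes Dll4 and Nrarp and the endothelial genes Pecam1 and Cdh5 in each mouse (points) of the 4 groups (x axis), with mean and SD (n = 3). Hey1 and Heyl sit lower in both mutant groups, as does Pecam1, at 24.3 FPKM in P-Ctrl and 18.9 in P-KO. Cdh5 averaged 18.7 FPKM in both P-Ctrl and P-KO, and 16.8 in R-WT and 14.7 in R-Het, which overlapped.

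Because endothelial cells carry Hey1, 6 endothelial genes were read beside it. Their summed level was 96.0 to 109 FPKM in P-Ctrl and 101 to 104 in P-KO, with Emcn, the most abundant, at 41.6 and 47.5 FPKM on average. The log2 fold change was below 0 for 4 of the 6 in P-KO (median -0.13) and for 6 of 6 in R-Het (median -0.25). Over all tested genes the medians were 0.06 and 0.02. Pecam1, an adhesion protein of vessels, was at 22.4, 26.3 and 24.4 FPKM in P-Ctrl and 17.4, 19.1 and 20.2 in P-KO. These groups did not overlap, and the log2 fold change of -0.35 ± 0.10 did not pass (adjusted p = 0.110). Kdr was also lower in every P-KO mouse (-0.20, adjusted p = 0.409). In the Runx2+/- set the summed level of the 6 endothelial genes was 101 to 109.5 FPKM in R-WT and 74.3 to 84.0 in R-Het. Pecam1 fell there (log2 fold change -0.57 ± 0.08, adjusted p = 0.0184), a call that held in 3 of 6 fits without 1 mouse. The other 5 endothelial genes did not pass there, and 0 of 6 passed in the Med23 MSC-/- set. At an unadjusted p under 0.05, 1 was lower in P-KO (Pecam1) and 2 in R-Het (Pecam1 and Emcn, limma). Emcn averaged 46.5 FPKM in R-WT and 32.2 in R-Het (adjusted p = 0.0663, limma). The part of endothelial RNA in the change of Hey1 was not tested. The genes nearest to Hey1 over the 12 mice, named here after their values were seen, were Gja4 (r = 0.96), Ggt5 (0.95), Col6a5 (0.95), S1pr1 (0.94) and Gper1 (0.94). Gja4 is a connexin of arterial endothelium and S1pr1 a receptor abundant in vessels, whereas Ggt5, Col6a5 and Gper1 were not assigned to a cell type. Values were centred on the mean of the cross, so a shift shared by the mutant mice enters these r.

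Summed muscle RNA was higher on average in P-KO and lower in R-Het, and Hey1 was lower in both mutant groups. With the muscle score added to the fit, the log2 fold change of Hey1 was -0.67 ± 0.15 in the Med23 MSC-/- set (adjusted p = 0.198) and -0.07 ± 0.27 in the Runx2+/- set (adjusted p = 0.962). In the second set the score and the genotype cannot be told apart, since no R-WT and R-Het mice overlapped in muscle RNA. Without the mice in which Xist was above 1 FPKM, Hey1 was at -0.81 with an adjusted p of 0.204 in the first set, where 1 control mouse was left and was assumed to vary like the others, and at -0.62 with 0.184 in the second.

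**Figure D4:**
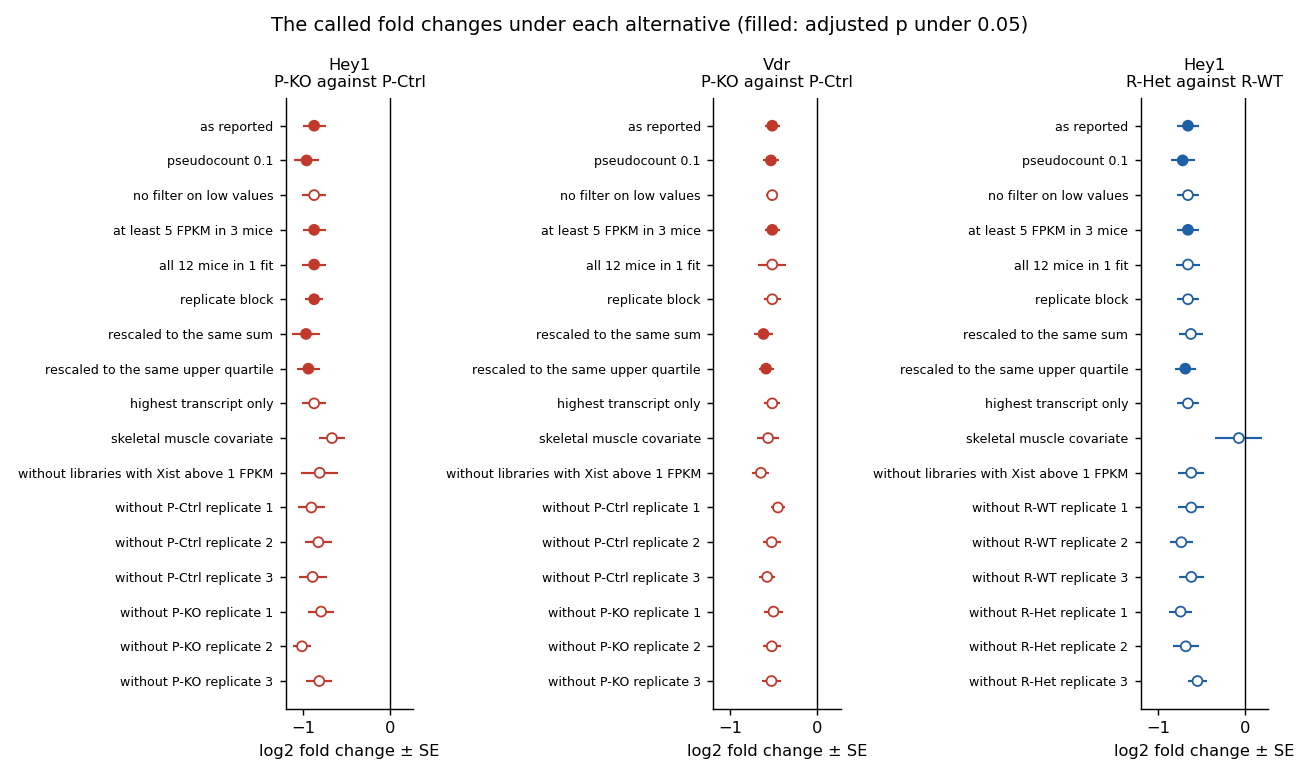
The log2 fold changes (x axis, with SE as lines) of Hey1 in both sets and of Vdr in P-KO, as reported and under each alternative processing (y axis), filled where the adjusted p was under 0.05. All points lie below 0, and the point of Hey1 nearest to 0 is the one with the muscle score in R-Het.

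Between the sets, 0 of the 9 factors differed at an adjusted p under 0.05, against 0.153% of all genes. At an unadjusted p under 0.05, 2 of the 9 did, Dlx6 and Tcf7, against 15.3% of all genes (limma).

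The factors were set beside 28 other osteoblast factors, 25 of which were tested. In the Med23 MSC-/- set 2 of them fell. Junb, a subunit of AP-1, was at 32.2, 31.4 and 28.4 FPKM in P-Ctrl and 16.6, 17.6 and 16.3 in P-KO (log2 fold change -0.83 ± 0.08, adjusted p = 0.0211). Foxc2, a forkhead factor of skull and vessel development, was at 7.35, 7.22 and 7.33 FPKM in P-Ctrl and 4.65, 3.74 and 4.10 in P-KO (-0.69 ± 0.10, adjusted p = 0.0320). In both genes the groups did not overlap. Without 1 mouse, Junb passed in 1 of 6 fits (adjusted p 0.0445 to 0.0922) and Foxc2 in 0 of 6 (0.0716 to 0.110). Junb averaged 23.2 FPKM in R-WT and 14.1 in R-Het, without overlap, and did not pass (-0.72 ± 0.22, adjusted p = 0.166, limma). Foxc2 averaged 7.39 and 7.65 FPKM there, with overlap (0.05 ± 0.18, adjusted p = 0.926). In the Runx2+/- set 1 of 25 was called. Twist2, which restrains osteoblast maturation, was at 13.8, 12.3 and 14.0 FPKM in R-WT and 22.7, 19.3 and 20.1 in R-Het, and rose by 0.59 ± 0.10 on the log2 scale (adjusted p = 0.0309), which was lost in all 6 fits without 1 mouse (0.0588 to 0.103). Atf4 was at 136 FPKM in P-Ctrl and 141 in P-KO.

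The RUNX genes and their partner Cbfb, 4 in all, did not pass in either set (limma; at an unadjusted p under 0.05, 1 was lower and 1 higher in P-KO and 0 in R-Het). Runx2 was at 38.0, 38.0 and 30.5 FPKM in P-Ctrl and 23.7, 27.7 and 28.7 in P-KO, a log2 fold change of -0.40 ± 0.12 with an adjusted p of 0.127. Over the 12 mice Runx2 followed Sp7 with an r of 0.76, Vdr with 0.75 and Dlx5 with 0.69. The r of Hey1 with Runx2 was 0.39 and with Heyl 0.89. Zfp521 ran against Hey1 (r = -0.83).

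Genes of the bone matrix lie downstream of several of the factors. Of 15 tested, 3 fell in the Med23 MSC-/- set, and their median log2 fold change was -0.62. Bglap, which encodes osteocalcin, averaged 9736 FPKM in P-Ctrl and 2663 in P-KO (log2 fold change -1.95 ± 0.32, adjusted p = 0.0401), Bglap2 5063 and 1553 (adjusted p = 0.0327) and Fam20c, a kinase of secreted matrix proteins, 32.9 and 15.2 (adjusted p = 0.0211). Without 1 mouse, Bglap and Fam20c passed in 0 of 6 fits (adjusted p 0.0595 to 0.130 and 0.0513 to 0.0922) and Bglap2 in 1 of 6 (0.0447 to 0.114). Reads of Bglap and Bglap2 may be split between these near-identical copies. Col1a1 (-0.70, adjusted p = 0.129) and Alpl (-0.42, adjusted p = 0.233) did not pass. In the Runx2+/- set 1 of 15 fell, the collagenase Mmp13, from 1548 to 377 FPKM (-2.04 ± 0.18, adjusted p = 0.00540), and it passed in 6 of 6 fits without 1 mouse. Mmp13 averaged 1440 FPKM in P-Ctrl and 533 in P-KO, without overlap, but did not pass there (-1.53 ± 0.36, adjusted p = 0.0811, limma). Its difference between the sets did not pass either (0.52 ± 0.45, adjusted p = 0.642). Fam20c was lower in every R-Het than in every R-WT mouse and did not pass (-0.54 ± 0.12, adjusted p = 0.0713). Bglap and Bglap2 overlapped in that set (adjusted p = 0.615 and 0.674).

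Markers of other cells moved as well. Of 6 osteoclast genes, 3 fell in R-Het (Dcstamp, Atp6v0d2 and Calcr, limma adjusted p of 0.0184, 0.0163 and 0.0320, held in 4, 5 and 1 of 6 fits without 1 mouse) and 0 passed in P-KO, also at an unadjusted p under 0.05. Of 6 cartilage genes tested, Col2a1 fell in P-KO (log2 fold change -0.86, adjusted p = 0.0404), which passed in 0 of 6 fits without 1 mouse (0.0722 to 0.133), and 0 passed in R-Het. Erythroid genes, led by Hba-a1 at 5914 FPKM in P-Ctrl and 3556 in P-KO, included 0 of 5 that passed in either set, although 5 of 5 were lower in R-Het at an unadjusted p under 0.05, against 8.32% of all genes, and 2 in P-KO, against 5.63%. Of 3 neuronal genes and 1 epidermal gene tested, 0 passed. Their part in the levels of the 9 factors was not tested.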

How the data were processed

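The authors deposited 12 tables, 1 per mouse, of FPKM per RefSeq transcript, without counts. The unit was inferred from the values. The submitters' processing notes name Bowtie 0.12.8 and the build mm10 (GRCm38); the quantification program is not given in the sources used here. Libraries were made from total RNA with an Illumina TruSeq kit. Of 30411 transcripts, 29835 were matched to symbols by NCBI's GRCm38 table and 180 by GENCODE, and values were summed per gene.

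Values were taken as log2(FPKM + 1), which understates changes of low genes. Genes with at least 1 FPKM in 3 of 12 mice were fitted with limma 3.58.1 (R 4.3.3) with a mean-variance trend, separately in each set of 6 mice, and adjusted by the Benjamini-Hochberg method over all 13059 genes. Differences between the sets came from a fit of 12 mice. Tests are two-sided. Depth, 7800000 to 11800000 fragments per mouse, was estimated from the smallest values and is rough; it limits precision for low genes. The fit was tested on simulated data. The labels say that each sample is a replicate of its group.

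The 9 factors, the gene lists and the alternatives were chosen with earlier results of these data known. Named genes were the 9 factors, Med23, Runx2, Atf4, Bglap, Alpl and Col1a1, up to 4 called genes per list, the 2 most abundant genes of a list without calls, and the 5 genes most like Sp7, Mef2c and Tcf7. Further genes, among them Dlx4, Cyp24a1, Cdh5, Gad1, Gad2, Krt5 and Sost, were named outside this rule, some after their values were seen. Skeletal muscle genes served as a covariate and were read beside the factors, and Xist served to leave out mice. Neither batches nor dates are given in the sources used here.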

Additional observations from a re-analysis of the deposited data

How the results depend on the processing

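In P-KO the calls of the 9 factors numbered 2, and 0 with no filter on low values, with only the highest transcript of a gene, with the muscle score or without the mice with Xist above 1 FPKM, and 1 with the replicate block (Hey1); in the fit of all 12 mice they were again 2, Hey1 and Dlx5, with Vdr lost (adjusted p = 0.0879). In R-Het the 1 call became 0 under those 5 alternatives, in the fit of all 12 mice and after rescaling to the same sum. Without 1 mouse at a time the calls were 0 to 0 in both sets. Hey1 and Vdr each had 1 measured transcript, so their own values were unchanged with the highest transcript. Only the values of other genes in that fit and adjustment differed. What lay behind the other losses was not tested. Genes called in P-KO numbered 205, and 1 with no filter, 717 in the fit of 12 mice, 107 and 128 after rescaling to the same sum or upper quartile, 57 with the highest transcript, 1 with the muscle score, 0 without the Xist mice and 0 to 35 without 1 mouse. In R-Het they numbered 247, and 5, 95 in the fit of 12 mice, 90 with the block, 111 with the highest transcript, 0 with the muscle score, 34 without the Xist mice and 34 to 169 without 1 mouse. Lower and higher calls in P-KO were 73 and 132, but 65 and 42 after rescaling to the same sum and 75 and 53 by the upper quartile; rescaling to the same sum moved the median difference between the sets over all genes from 0.04 to -0.09.

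The median of the factors was -0.16 in P-KO with the muscle score, and -0.47 to -0.25 without 1 mouse (R-Het: -0.06 to 0.15). Signs turned for Mef2c in P-KO under both rescalings (-0.034 and -0.0044), the muscle score (-0.046) and without the Xist mice (-0.088), for Tcf7 in P-KO with the muscle score (0.040), and, with that score in R-Het, for Dlx3 (1.03), Dlx5 (0.12), Zfp521 (-0.059), Tcf7 (-0.040), Mef2c (-0.059) and Runx2 (-0.39), and for the difference of Dlx5 (0.030). Without 1 mouse, signs turned within these ranges: Mef2c in P-KO -0.0033 to 0.15; in R-Het, Sp7 -0.065 to 0.21, Dlx3 -0.44 to 0.16, Dlx6 -0.013 to 0.16, Vdr -0.28 to 0.044 and Runx2 -0.0032 to 0.22; for the differences, Mef2c -0.13 to 0.016, Zfp521 -0.24 to 0.0058 and Dlx3 -0.45 to 0.14. None of these values passed the test.

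Same-numbered mice correlated at 0.18, 0.26 and 0.053 in the Med23 MSC-/- set, where each mouse correlated best with its own number. In the Runx2+/- set they correlated at 0.0048, -0.047 and -0.084, and did not correlate best with their own number. Numbers were taken as pairs only where all 3 pairs of a set passed a minimum correlation. The pair at 0.053 missed it, so pairing was not used in the Med23 MSC-/- set either, but it was not excluded there. With the block that set held 92 lower and 181 higher genes. Groups of 3 and an estimated depth limit the precision.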
